A study of Mesocricetus auratus with 24 samples.

Results

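Cultures grown from single B[a]P-treated Syrian hamster (Mesocricetus auratus) colonies of transformed morphology were compared with cultures from B[a]P-treated colonies of normal morphology. The 8 libraries were chosen by sample title, 4 titled MT colony and 4 titled Normal colony, out of 24 libraries in the series. Methylation was read by reduced representation bisulfite sequencing (RRBS), which samples CpG-rich restriction fragments after unmethylated cytosines have been converted. Both groups came from primary fetal cells exposed to benzo[a]pyrene (B[a]P) at 5 µg/mL and collected between day 19 and day 25. Per the labels each assay used cells of a single male fetus, grown with conditioned medium in place of an irradiated feeder layer. The labels do not say whether the 8 colonies share a fetus. Day 9 pools of about 60 B[a]P-treated colonies (n = 4), and of about 60 colonies given 0.2% DMSO (n = 4), served as reference levels. A culture from a B[a]P-treated transformed colony, sampled in senescence on day 48 and after bypass of senescence on day 94 (n = 4 technical replicates each, from pooled fetuses of both sexes), was a further reference. Each colony library is 1 expanded colony, and the series describes the colonies as biological replicates. A methylation table holds no check of colony morphology.

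In mammalian cells most CpGs are methylated, while CpG-dense stretches, often promoters, stay largely unmethylated. DNMT1 copies the methylation pattern to the new strand at replication, and DNMT3A and DNMT3B add methylation at new sites. In the Syrian hamster embryo assay a colony grows from a seeded cell, so a change carried by its founder can be inherited by the whole colony. Disordered piling and crisscrossing of cells marks a transformed colony. B[a]P is a combustion product that is metabolised to a diol epoxide, which forms adducts on guanine.

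The 8 libraries held 42938360 to 67276906 summed position reads over 1207891 to 1483483 CpG positions, with a median coverage of 22 to 38 reads. Normal colony 2 stood apart in ways beside its methylation. Of its window reads, 55.1% lay in the quartile of windows with most CpG positions, against 44.0% to 47.2% in the other 7 colonies. The SD of its log2 coverage share over 258 scaffolds was 0.18, against 0.06 to 0.08 in the others. On the mitochondrial contig, at 14 positions shared by the 8, it had the lowest methylated share, 0.692% of reads against 1.08% to 3.10%. The part of these features in its methylation values was not tested, so many results are given with and without it.

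Mean methylation did not separate the 2 groups. The 8 libraries shared 117398 CpG positions covered by 10 reads or more, and over these the transformed colonies 1 to 4 had means of 39.0%, 40.2%, 40.2% and 40.7%. The normal colonies 1 to 4 had means of 37.9%, 35.8%, 40.3% and 39.3%. The groups overlapped: normal colonies 3 and 4 lay within the transformed range, and normal colonies 1 and 2 lay below every transformed colony. The transformed mean was 40.0% ± 0.715 (SD, n = 4) and the normal mean 38.3% ± 1.96 (SD, n = 4). The difference of 1.73 points was within the spread of the normal colonies (exact two-sided permutation test over 70 assignments, p = 0.2, smallest possible 0.0286). Without normal colony 2 the difference was 0.876 points at the same positions. At 4090 CpGs measured on both strands in every colony it was 0.904 points (exact permutation test, p = 0.257). Weighting each position by its reads raised the difference to 4.05 points (exact permutation test, p = 0.171), and over the tested windows described below 3.04 points (exact permutation test, p = 0.171).

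Of the 8 colonies, normal colony 2 held the most low and the fewest high windows. Methylation was averaged over 45771 windows of 1 kb with at least 3 positions in every colony. Windows under 20% made up 47.8%, 46.5%, 46.7% and 46.1% of the transformed colonies 1 to 4 and 48.5%, 51.3%, 46.7% and 46.5% of the normal colonies 1 to 4. Windows at 80% or more made up 24.5%, 25.5%, 26.1% and 26.4% of the transformed colonies and 22.4%, 20.7%, 26.2% and 23.8% of the normal ones (exact permutation test, p = 0.114). Normal colony 3 was as high as the transformed colonies in this class, and normal colony 2 the lowest of the 8. The transformed minus normal difference in this class was 2.38 points, and 1.52 without normal colony 2. Under 20% it was -1.47 points, and -0.456 without normal colony 2.

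**Figure D1:**
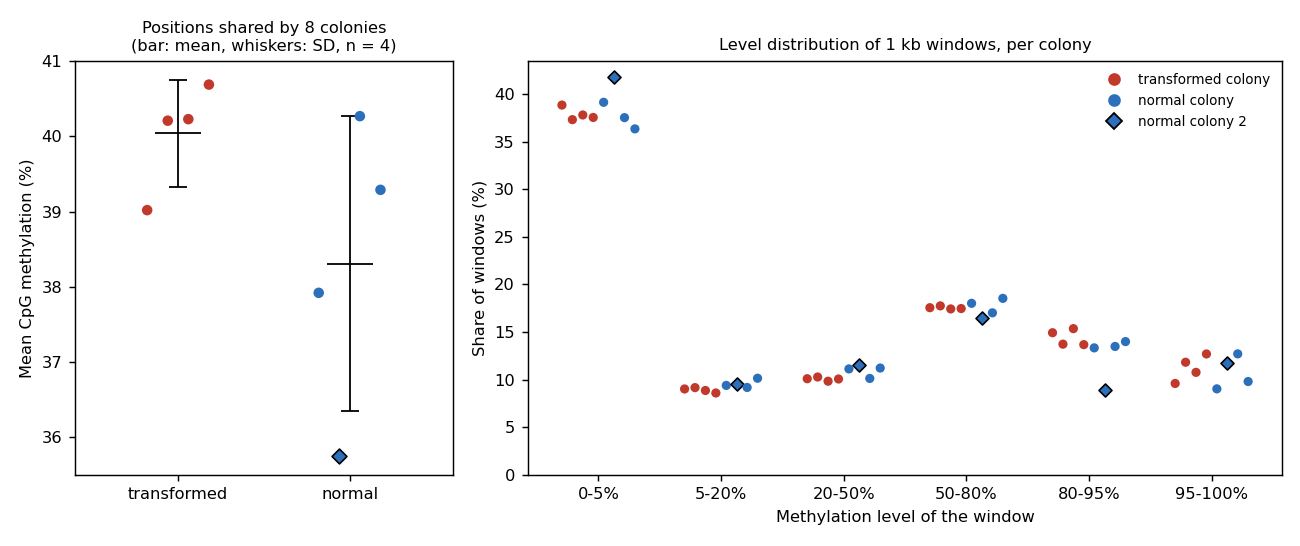
Left, mean CpG methylation (%) over 117398 positions shared by the 8 colonies, 1 point per colony, with the group mean and SD (n = 4). Right, the share of 45771 windows (%) in each of 6 classes of methylation level, 1 point per colony; normal colony 2 (diamond) holds 41.8% of its windows under 5% and 8.87% at 80 to 95%.

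Intermediate windows, at 20 to 80%, made up 27.7%, 28.0%, 27.3% and 27.5% of windows in the transformed colonies and 29.1%, 28.0%, 27.1% and 29.7% in the normal ones. The difference was -0.908 points (exact permutation test, p = 0.229). It was -0.186 points in windows of at least 5 positions, -0.515 with at least 20 reads per position and -0.346 for the wider class of 10 to 90% (exact permutation tests, p from 0.343 to 0.771). Without normal colony 2 it was -1.28 points (exact permutation test, p = 0.2). Without normal colony 3, which had the lowest share, it was -1.42 points (exact permutation test, p = 0.0286, the smallest that design allows). The groups then no longer overlapped. Of 6 finer classes, that of 5 to 20% was the one in which the groups did not overlap. It held 8.59% to 9.16% of windows in the transformed and 9.17% to 10.1% in the normal colonies (exact permutation test, p = 0.0286, Benjamini-Hochberg adjusted over the 6 classes 0.171).

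The share of single positions at intermediate levels was highest in the libraries in which the 2 strands of a CpG agreed best, in both groups. CpG sites are symmetric, and maintenance methylation keeps both strands alike in most cells, so the strands give separate readings of 1 site. At sites with a mean of 20 to 80%, the forward and reverse levels differed by an average of 50.9, 64.7, 56.6 and 67.6 points in the 4 transformed colonies, in order of number. Among normal colonies 1 to 4 the strands differed by 58.4, 69.6, 66.0 and 54.4 points. Independent reads at the median depth of 23 to 39 per strand would differ by 9.09 to 11.2 points. Sites with 1 strand low and the other high also have a mean in this range, so choosing by the mean takes them in. A second measure used all sites read on both strands, whatever their level. If both strands of a site share 1 level, the differences there equal those of 1.43 (normal colony 2) to 2.02 (transformed colony 1) independent reads per strand. The level at a single position would then be far less precise than its read count gives. The source of the strand differences was not tested.

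Across the 8 colonies the equivalent number of independent reads and the share of the shared positions at 20 to 80% rose together. Pearson's r was 0.957 (exact permutation test, p = 0.000521, adjusted over 2 relations 0.00104). Spearman's rho was 0.976 (exact permutation test, p = 0.000397, adjusted 0.000794). Without transformed colony 1 and normal colony 4, farthest from the median, r was 0.972. Both measures came from the same reads, so they are not independent. Mean methylation showed no such relation, with r of 0.0905 (exact permutation test, p = 0.83, adjusted 0.83) and rho of -0.143 (exact permutation test, p = 0.752, adjusted 0.752). The 2 groups were interleaved along this axis. Transformed colony 4 and normal colony 2, the deepest at the shared positions with medians of 65 and 63 reads, had the lowest intermediate shares. Normal colony 4 and transformed colony 1, the shallowest with 35 and 38, had the highest. The part of read depth in the relation was not tested.

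The spread between colonies was larger among normal colonies, but the difference did not pass the test. The median SD of a window was 11.9 points among transformed and 13.2 points among normal colonies, over the 26825 windows with pooled methylation of 5 to 95% (exact permutation test, p = 0.429). Without normal colony 2 the normal median was 11.4 points in the same windows. With each set's own windows, the difference in median SD moved from -1.30 points to 0.423 without normal colony 2, and to -0.439, -0.324 and -0.614 without normal colony 1, 3 or 4. Leaving out a transformed colony gave -2.64 to -1.97 points. In these values an SD over 3 colonies stands against one over 4, and the change was toward a less variable smaller group whichever colony was left out. Windows with an SD of 20 points or more made up 20.02% among transformed and 24.9% among normal colonies, and 20.8% among normal colonies without the second. By level, the excess among normal colonies was in methylated windows. At a mean level of 50 to 80% the median SD was 14.7 among transformed and 17.2 among normal colonies, and 14.7 among normal colonies without normal colony 2.

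Whether colonies of 1 morphology lie closer to each other than to the other morphology was asked with pairwise distances, and no difference passed the test. The distance between 2 colonies was the mean absolute difference over the same 26825 windows. It averaged 16.5 points between transformed colonies (15.5 to 17.4), 18.0 between normal colonies (16.6 to 19.6) and 17.5 between the groups (15.4 to 20.3). Pairs of different morphology lay 0.203 points farther apart than pairs of 1 morphology (exact one-sided permutation test, p = 0.143). Leaving out normal colony 2 gave an excess of 0.106 points (exact one-sided permutation test, p = 0.257). The nearest neighbour of transformed colonies 1, 2 and 3 was normal colony 4. Normal colony 2 was farthest from the rest, at a mean of 19.4 points against 16.6 to 17.6 for the others.

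**Figure D2:**
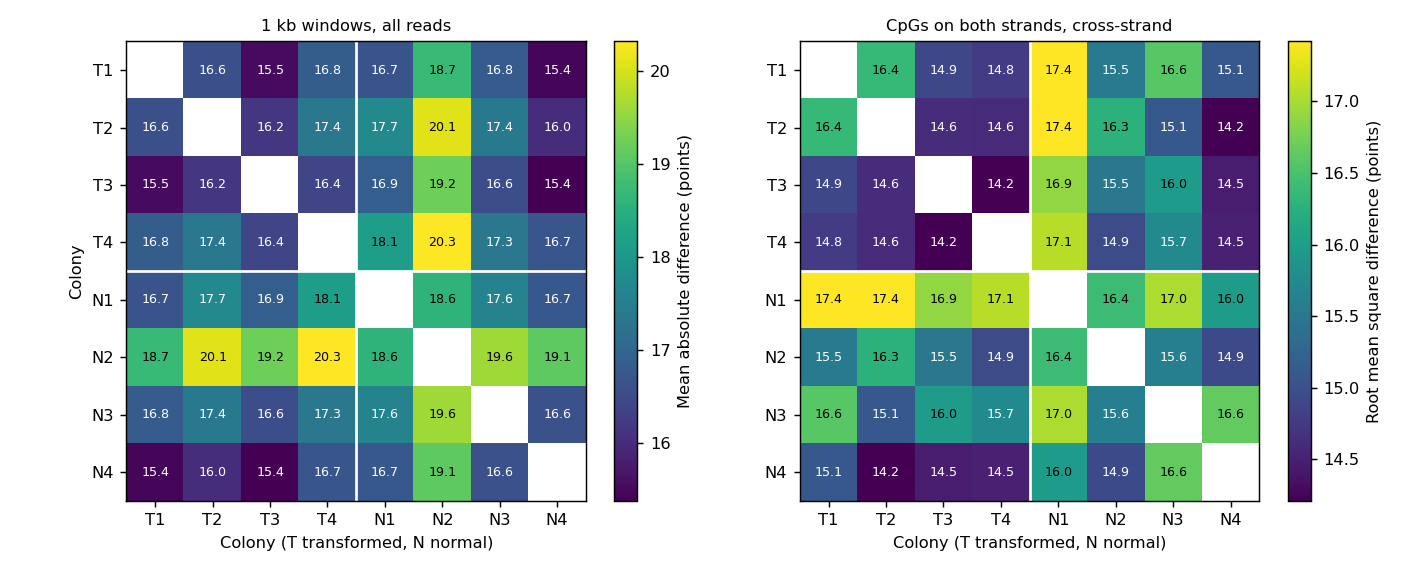
Pairwise distances between the 8 colonies in percentage points (T transformed, N normal). Left, mean absolute difference over 26825 windows, in which N2 has the largest values; right, root mean square difference at 4090 CpGs from the product of the forward and the reverse difference, in which N1 has the largest values.

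A second distance left out noise that is not shared by the strands, by multiplying the forward difference of 2 colonies by their reverse difference at 4090 CpGs. Its root mean square was 14.9 points between transformed colonies, 16.1 between normal colonies and 15.8 between the groups. The same measure within a strand gave 26.7, 27.7 and 27.3 points, so much of a single-strand difference was not shared by the other strand. On this measure normal colony 1 was the most distant, at 16.0 to 17.4 points from each other colony, and normal colony 2 lay 14.9 to 16.4 points from them. The mean square excess between the groups was 9.33 squared points (exact one-sided permutation test, p = 0.114). Without normal colony 2 it was 13.4 squared points (exact one-sided permutation test, p = 0.114).

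No window was called different between the morphologies after adjustment. Of the 26825 tested windows 0 were called, or 0%, at a Benjamini-Hochberg adjusted p below 0.05 with means 10 points apart. This was a quasi-binomial test whose dispersions were squeezed with limma, and the smallest adjusted p was 0.428. KB708128.1 positions 1669001 to 1670000 had that adjusted p with group means 59.5 points apart. A count of 0 thus does not show that the windows were alike. At an unadjusted p below 0.05 there were 2177 windows, or 8.12%. edgeR's quasi-likelihood test also called 0. It had 781 of the 26825 windows at an unadjusted p below 0.05, fewer than the 2177 of the quasi-binomial test, so the tests differed in how readily they gave low p. Without normal colony 2 a larger set of 35680 windows was tested, and the quasi-binomial test called 2 neighbouring windows of these. They were KB708149.1 positions 8247001 to 8248000 and 8248001 to 8249000, with an adjusted p of 0.00489 each (limma-squeezed). They are named because they were called, outside the rule for named windows. In the second, transformed colonies 1 to 4 were at 100%, 98.8%, 98.1% and 97.2% and normal colonies 1, 3 and 4 at 97.9%, 46.9% and 99.3%. Normal colony 3 was the low colony of the 7 in both windows. Their dispersions of 261 and 216 were squeezed to 38.3 and 36.2 for the test, so much of the spread from that colony did not enter it. With normal colony 3 left out instead, 1 window was called, KB708131.1 positions 28761001 to 28762000 (limma-squeezed, adjusted p = 0.0217). With normal colony 4 left out, the second of the neighbouring pair was called (limma-squeezed, adjusted p = 0.0169).

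Window direction leaned to higher levels in transformed colonies, and the lean was smaller without normal colony 2. The transformed mean was higher in 16063 windows and lower in 10762, a share of 59.9% higher, with a median difference of 2.40 points. Differences of at least 30 points numbered 567 upward and 166 downward. In the same windows without normal colony 2, 54.8% were higher, with 493 upward and 283 downward. Leaving out any of the other 7 colonies instead gave 57.9% to 62.3% higher. Windows share libraries and are not replicates, so the share has no test.

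The difference in points was larger in windows that started at intermediate or high levels, although no class of windows passed the test. Starting level was taken from the B[a]P pools, which are not among the colonies compared, over 35422 windows measured in all of these libraries. In windows under 20% in the pools the transformed minus normal difference was 0.393 points (exact permutation test, p = 0.343). It was 4.51 points at 20 to 50% (exact permutation test, p = 0.2), 3.598 at 50 to 80% (exact permutation test, p = 0.114) and 1.56 at 80% or more (exact permutation test, p = 0.2). Without normal colony 2 these differences were 0.111, 2.25, 2.02 and 0.787 points. Windows under 20% averaged 2.70% in the pools, 3.94% in transformed and 3.55% in normal colonies. Such low levels limit a difference in points, so the classes are not alike in this measure. In the class of 20 to 50%, transformed colonies 1 to 4 were at 37.6%, 42.5%, 40.9% and 43.3% and normal colonies 1 to 4 at 34.7%, 29.8%, 41.5% and 40.3%. Transformed colony 1 lay below normal colonies 3 and 4 there, and normal colony 2 was 9.02 points below the mean of the other normal colonies.

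**Figure D3:**
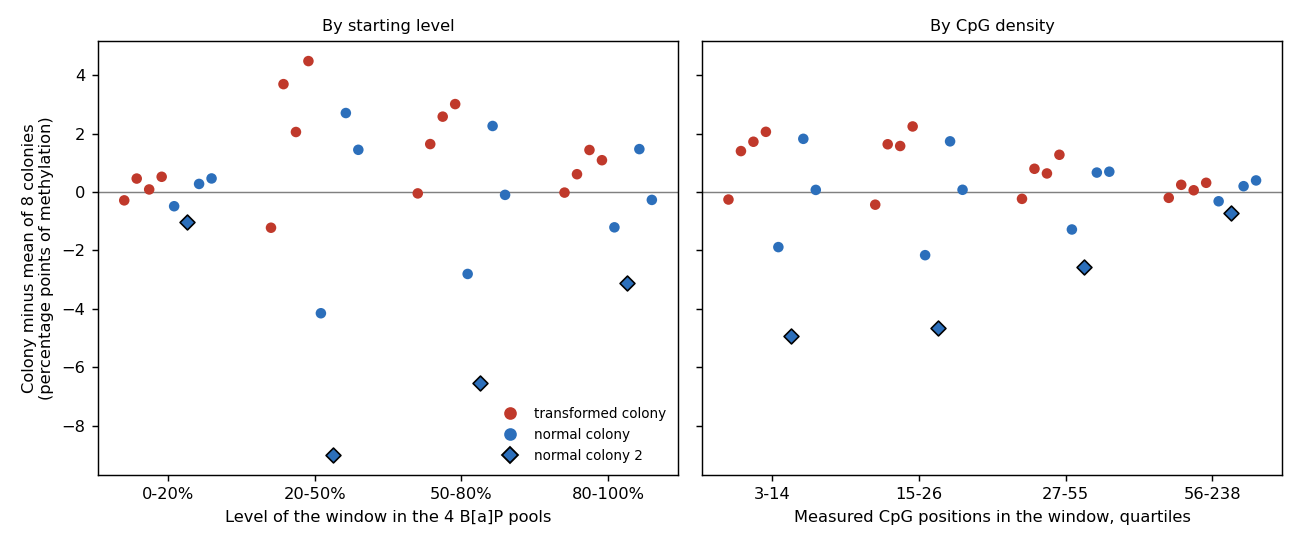
Colony level minus the mean of the 8 colonies (percentage points), 1 point per colony, for windows grouped by level in the B[a]P pools (left) and by number of measured CpG positions (right). Normal colony 2 (diamond) is the lowest of the 8 in every class shown, and the points draw together in windows under 20% and in windows with 56 to 238 positions.

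CpG density was taken as the number of CpG positions measured in a window, with strands counted apart. It went with the difference over all levels together and within windows under 20% in the pools, but not within those at 50% or more. Over all levels the difference was 2.47 points in windows of 3 to 14 positions and 2.51 in those of 15 to 26. It was 1.24 in those of 27 to 55 and 0.212 in those of 56 to 238. The 4 exact permutation tests gave p from 0.229 to 0.514. Within windows at 50 to 80% in the pools the 4 quartiles, sparsest first, differed by 3.22, 3.81, 4.55 and 3.62 points, and within those at 80% or more by 1.43, 1.77, 1.41 and 2.76 points. The densest quartile was also the least methylated, with means of 3.70% to 4.80% over the 8 colonies. Over all levels without normal colony 2, the 4 differences were 1.23, 1.37, 0.593 and 0.0125 points. Crossing 4 levels with 4 densities gave 16 classes, and the transformed mean was higher in 16 of 16, or in 15 of 16 without normal colony 2. The exception was windows under 20% of the densest quartile, at -0.0500 points. Normal colony 2 was the lowest colony in 16 of 16. The smallest p was 0.0571 by the exact permutation test, in dense windows at 80% or more, with an adjusted p over the 16 classes of 0.343. Dense windows that were methylated in the pools were few, 107 at 50 to 80% and 99 at 80% or more.

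The 2 lowest normal colonies were low in most of the bins that could be examined. These were 208 bins of 250 kb with at least 10 windows at 50% or more in the pools, 3076 windows in all. Such windows averaged below the mean of the other 7 colonies in 85.1% of bins in normal colony 2 and 76.0% in normal colony 1. In the other 6 colonies the share was 26.4% to 48.1%. Windows next to each other deviated together little, with correlations of 0.00914 to 0.138 over 831 neighbouring pairs, given as a description. Over 161 scaffolds with at least 2000 positions, log2 coverage relative to the median colony stayed between -0.20 and 0.20 in 7 colonies and between -0.28 and 0.41 in normal colony 2.

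Windows in which every colony of 1 group lay above every colony of the other were a small share. The transformed colonies were all higher in 581 windows (2.17%) and the normal colonies all higher in 260 (0.969%), together 3.14% of those tested. Levels in the libraries outside the comparison were then read in both sets. Of the first set 435 windows were measured in the senescent, 412 in the bypass and 420 in the B[a]P pool libraries. The senescent and bypass libraries were at 62.5% ± 0.714 and 65.0% ± 0.782 (SD, n = 4 technical replicates) in it. In the windows higher in normal colonies they were at 62.3% ± 1.12 and 64.2% ± 0.767 (SD, n = 4). The B[a]P pools were at 57.0% ± 1.19 in the first set and 56.4% ± 1.35 in the second (SD, n = 4). Each of these 3 groups thus stood at nearly the same level in both sets, as it did over all tested windows, with 62.0%, 65.2% and 56.3%. The vehicle pools were at 54.3% ± 0.679 in 358 windows of the first set and 51.8% ± 0.549 in 150 of the second (SD, n = 4), and at 54.1% over all tested windows. Their difference had the direction of the split, and it was not tested.

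The named windows were the 5 with the widest gap between groups in each direction, among 12217 windows with at least 5 positions per colony. Among these 12217, the groups did not overlap in 266 with the transformed colonies higher (2.18%) and in 101 with the normal colonies higher (0.827%). Their adjusted p was at least 0.428 by the limma-squeezed test. Coordinates are those of the deposited files, and gene annotation of that build was not used here. At KB708128.1 positions 1669001 to 1670000, with 6 positions and 206 to 422 summed reads per colony, transformed colonies 1 to 4 were at 98.8%, 85.1%, 94.5% and 81.9%. Normal colonies 1 to 4 were at 25.2%, 38.2%, 53.1% and 5.52% there. The 4 B[a]P pools were between, at 59.2% to 72.1%, and the vehicle pools ran across both groups, at 26.8% to 94.2%. The senescent libraries were at 83.8% to 100% and the bypass libraries at 99.0% to 100%.

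At KB708160.1 positions 12737001 to 12738000 transformed colonies 1 to 4 were at 59.7%, 50.6%, 63.3% and 63.7%. Normal colonies 1 to 4 were at 25.2%, 18.5%, 25.8% and 26.3%. Here the range of the B[a]P pools, 15.9% to 32.7%, covered the normal levels. The vehicle pools were at 18.8% to 44.7% and the senescent libraries at 73.7% to 80.4%. These were the 2 of 5 windows higher in transformed colonies whose groups were apart on each strand alone. At KB708304.1 positions 1268001 to 1269000 the groups were 46.9% to 66.9% and 0.0645% to 25.0% on summed strands, but they overlapped on each strand alone. Transformed colony 4 was at 12.7% and normal colony 4 at 17.3% on forward positions, and transformed colony 1 at 25.7% and normal colony 3 at 38.0% on reverse positions. KB708150.1 positions 3637001 to 3638000 and KB708169.1 positions 2825001 to 2826000 overlapped on 1 strand each.

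Of the 5 windows higher in normal colonies, the groups were apart on each strand in 1, KB708153.1 positions 17274001 to 17275000. There transformed colonies 1 to 4 were at 10.2%, 29.1%, 38.1% and 26.1%, and transformed colony 2 had no reverse position. Normal colonies 1 to 4 were at 63.6%, 66.2%, 81.0% and 59.6%. The B[a]P pools, at 31.5% to 53.2%, overlapped the transformed colonies and lay below the normal ones. The vehicle pools, of which 3 were measured, were at 60.2% to 73.4%. The other 4 windows were KB708290.1 from 3120001, KB708422.1 from 294001, KB708307.1 from 774001 and KB708128.1 from 8352001, with gaps of 19.7, 13.0, 12.6 and 10.2 points between the groups. In the first of these, forward positions overlapped between groups, at 0% to 40.1% and 10.4% to 30.2%. Transformed colony 4 was at 22.3% in that window, the level of its 10 forward positions. Its 1 reverse position, at 93.6%, did not enter that level or the gap.

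**Figure D4:**
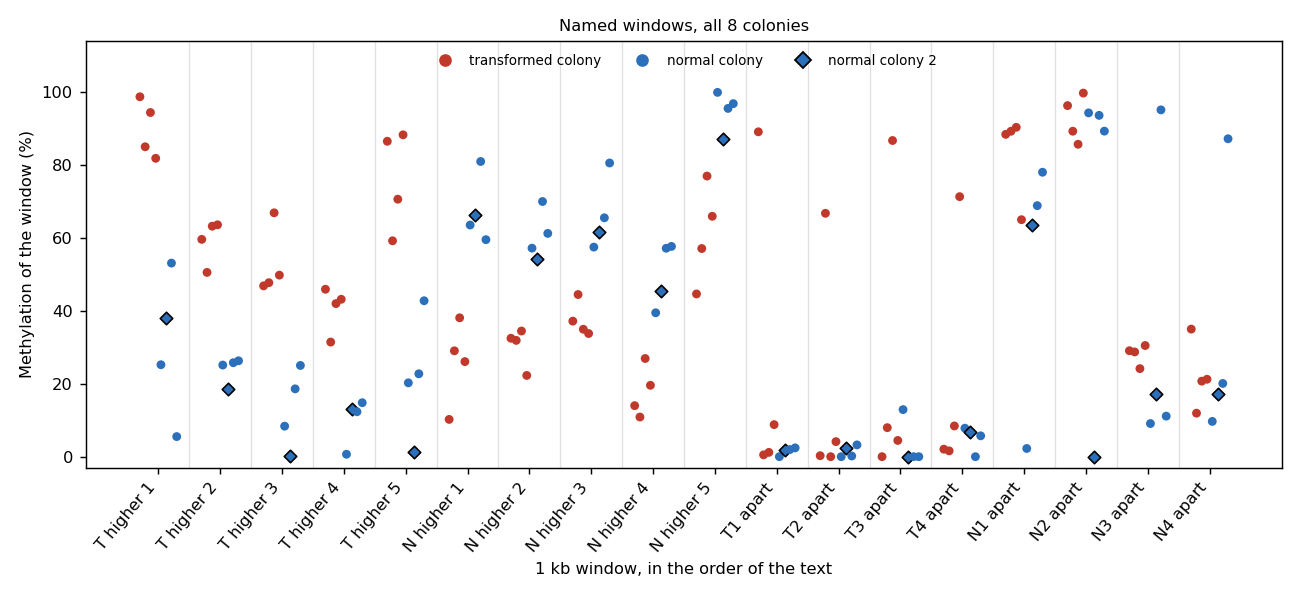
Methylation (%) of 18 windows in each of the 8 colonies: 5 with transformed colonies higher, 5 with normal colonies higher, and for each colony the window in which it stands farthest from the nearest other. The 2 groups do not overlap in the first 10, and 1 colony lies at least 52.3 points from all others in the last 8.

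Single colonies also stood far from the other 7 in some windows. In 2435 of the 26825 tested windows a colony stood at least 30 points above or below every other. Transformed colonies 1 to 4 stood above in 66, 136, 94 and 189 windows and normal colonies 1 to 4 in 61, 49, 132 and 73. They stood below in 130, 126, 71 and 141 windows and in 225, 714, 142 and 98. Normal colony 2 alone thus held 714 of the low windows. By any margin, it was the lowest colony in 22.7% of tested windows, and each of the others in 7.80% to 14.1%. Its median was 6 positions per tested window, against 8 or 9 in the others.

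In each transformed colony the most extreme window was methylated in that colony and low in the other 7. At KB708136.1 positions 24896001 to 24897000, with 15 to 32 positions, transformed colony 1 was at 89.2% and the other 7 at 0% to 8.80%. It was high on both strands, at 95.7% forward and 77.5% reverse, and at 73.0% in the adjoining window before it, where the others reached 17.1%. The senescent and bypass libraries were at 2.48% or less there, the vehicle pools at 10.7% or less and the B[a]P pools at 1.45% to 36.3%. At KB708219.1 positions 5915001 to 5916000 transformed colony 2 was at 66.8% (47.9% forward, 89.5% reverse) and the others at 4.14% or less, while the vehicle pools reached 37.2% and the B[a]P pools 19.7%. At KB708135.1 positions 5522001 to 5523000 transformed colony 4 was at 71.4% (76.7% forward, 58.7% reverse) and the others at 8.43% or less. The bypass libraries were at 23.8% to 59.4% in that window. At KB708320.1 positions 1360001 to 1361000 transformed colony 3 was at 86.8% from 5 positions and the others at 12.9% or less, while the senescent libraries ran from 3.08% to 59.8%. In the window after it, that colony was at 1.18%.

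In normal colonies 1 and 2 the most extreme window was methylated in the others and nearly unmethylated in that colony. At KB708247.1 positions 6007001 to 6008000 normal colony 2, with forward positions only, was at 0% and the other 7 at 85.8% to 99.8%. On forward positions alone the others were at 87.1% to 99.8%. At KB708127.1 positions 70755001 to 70756000 normal colony 1 was at 2.25% and the others at 63.5% to 90.4%. At KB708220.1 positions 3246001 to 3247000 normal colony 3 was at 95.2% and the others at 9.09% to 30.5%, but it had forward positions only, where transformed colony 3 was at 100%. At KB708274.1 positions 936001 to 937000 normal colony 4 was at 87.3% from 5 positions and the others at 9.68% to 35.02%.

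Windows methylated in 1 colony alone were then counted, by a rule chosen after these windows were seen. A window was high in 1 colony alone when that colony was at 50% or more and the other 7 under 20%, with at least 5 positions each. There were 8, 11, 8 and 14 such windows in the 4 transformed colonies, and 3, 0, 5 and 2 in the 4 normal ones. These are few of the windows in which the other 7 were under 20%. Such windows numbered 1119, 1189, 1160 and 1218 for the transformed and 1127, 1090, 1179 and 1165 for the normal colonies. The groups did not overlap in the counts, which were not tested. With windows of at least 3 positions the counts were 10, 19, 14 and 23 against 7, 1, 17 and 10, and they did overlap. At or past 50% on each strand alone there were 3, 2, 2 and 1 against 0, 0, 0 and 1. Windows low in 1 colony alone, under 50% with the other 7 at 80% or more, numbered 4, 0, 4 and 2 in transformed and 7, 22, 4 and 1 in normal colonies. The other 7 were at 80% or more in 849 to 993 windows per colony.

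**Figure D5:**
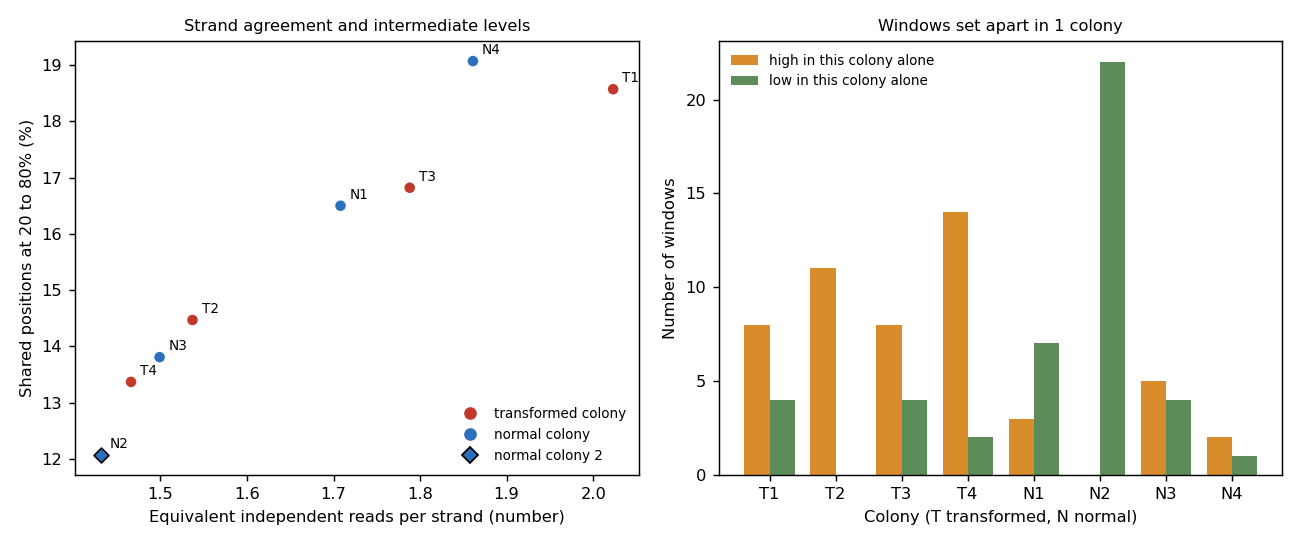
Left, equivalent independent reads per strand against the share of 117398 shared positions at 20 to 80%, 1 point per colony; the 8 points rise together and the groups are interleaved. Right, number of windows high or low in 1 colony alone, of 12217; transformed colonies (T) hold 8 to 14 high windows each and normal colonies (N) 0 to 5, while N2 holds 22 low windows.

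The 51 windows high in 1 colony had a median of 26 CpG positions and averaged under 50% in most of the windows measured in the other groups. Of the 51, 46 were measured in the B[a]P pools, 36 in the vehicle pools, 41 in the senescent and 40 in the bypass libraries. Those measured averaged 8.94% ± 0.938 in the B[a]P pools and 9.67% ± 1.68 in the vehicle pools (SD, n = 4 each). The senescent libraries averaged 11.2% ± 0.984 and the bypass libraries 20.7% ± 3.48 (SD, n = 4 each) in them. The 1040 windows under 20% in all 8 colonies, with a median of 42 positions, stood at 6.11% ± 0.363 in the B[a]P pools, 5.86% ± 0.286 in the vehicle pools, 11.3% ± 0.289 in the senescent and 18.5% ± 0.243 in the bypass libraries (SD, n = 4 each). Of the windows high in 1 colony, the share averaging 50% or more was 0% in either kind of pool, 2.44% in the senescent and 7.5% in the bypass libraries. Of the windows under 20% in all 8 colonies it was 0%, 0.426% and 2.93%. The first shares rest on only 36 to 46 measured windows, the second on 915 to 943.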

How the data were processed

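RRBS tables of the 8 colony libraries were used, with pool, senescent and bypass tables for reference levels. In the authors' tables, per the file headers, each row is 1 CpG position on 1 strand, with a coverage count and the percent of its reads that were methylated. The deposited tables list no position under 10 reads. The submitters' processing notes name methylKit 1.10.0, R 3.6.1, Bowtie2, Bismark 0.22.1, Trim Galore 0.5.0 and bcl2fastq 2.20.0.42, and give no roles. The genome build and any removal of PCR copies are not given in the sources used here.

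Methylated reads were coverage times percent. Positions in the top 0.1% of coverage of a library were left out of windows of 1 kb. Window totals sum position counts, so 1 read can enter more than once. Tested windows had at least 3 positions in every colony and pooled methylation of 5 to 95%. The quasi-binomial model had group as its term, Pearson dispersions squeezed with limma 3.58.1 in 10 classes with a floor of 1, an F test and Benjamini-Hochberg adjustment. The script was tested on simulated windows. edgeR 4.0.16 (R 4.3.3) was an alternative, and single values per colony were compared by exact permutation in Python 3.11.15. Windows named were those of widest gap, 5 in each direction, and 1 per colony. Any 2 colonies had equal counts at no more than 1.29% of shared positions. No interval is given per window, since the strands of a CpG differed by more than independent reads would. Alternatives were the coverage minimum, positions per window, shared positions, window size, dispersion, tool, replicate block and leaving out each colony. The members, tests and lists were chosen with earlier results of these data known. The strand measures, the windows high or low in 1 colony alone and the levels of other groups in non-overlapping windows were chosen after seeing the data.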

Additional observations from a re-analysis of the deposited data

Results flagged for a closer look

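Each value per colony was checked for a library far from the other 3 of its group, and chance flags about 1 in 20 groups. Of 108 groups, 7 were flagged, all among normal colonies. Normal colony 2 had 8.87% of windows at 80 to 95%, and the nearest other normal colony 13.3%. At CpGs read on both strands in its own library it averaged 11.7% on forward and 11.8% on reverse positions. The nearest normal colony averaged 29.6% on both, over its own and different set of CpGs. At the 4090 CpGs measured on both strands in every colony, normal colony 2 averaged 24.2% and the other normal colonies 25.1% to 27.2%. Its SD of log2 scaffold coverage was 0.18 against 0.08 in the nearest, and its highest scaffold, among those with at least 2000 positions, was at 0.41 against 0.12. Normal colony 3 had 33.4% of shared positions at 80 to 100%, and the nearest normal colony 29.8%. Normal colony 4 had 1 window at or past 50% on both strands and high in that colony alone, and the other 3 normal colonies had 0.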

How the results depend on the processing

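The count of called windows was 0 in the settings tried other than the replicate block and leaving out normal colony 2, 3 or 4, and it ranged from 0 to 2 when 1 colony was left out. The replicate block called 23 of 26825 windows, 21 higher and 2 lower in transformed colonies. In most of these the levels of the groups overlapped. The called windows had a median dispersion of 110, against 33.2 over all windows in that setting, and 1 had a dispersion under 1. Same-numbered colonies had correlations of deviations of -0.0319 to 0.0111, and 0 of 4 correlated best with its own number. Such correlations cannot show whether same-numbered colonies share a fetus or a batch. The main test did not use the replicate number as a block. For the mean methylation, weighting positions by reads gave 4.05 points, and sign changes within the replicate block gave the same 1.73 points (exact permutation test, p = 0.25). With 1 colony left out, the mean difference ranged from 0.965 to 2.35 points, the share of windows at 20 to 80% from -1.42 to -0.484 points and the median SD difference from -2.64 to 0.423 points. The last value, without normal colony 2, reversed the direction. The distance excess ranged from -0.152 to 0.821 points: it was -0.0949, -0.0499 and -0.152 without transformed colony 2, 3 or 4, and 0.821 without normal colony 4 (exact one-sided permutation test, p = 0.0286). The share of windows higher in transformed colonies ranged from 54.7% to 62.4%, and was 60.5% with at least 5 positions per colony. Of the 16 classes by level and density, the densest under 20% reversed, to -0.0500 points, without normal colony 2. The cause was not tested for any of these. Of 118 alternatives, 91 were labelled the same, 20 moved, 5 reversed and 2 stronger. Some results with no p were labelled moved though their direction held, such as 59.3% against 59.9% of windows higher. With 4 colonies a group an exact two-sided p cannot go below 0.0286, and at single CpGs the strands of a library disagreed by more than its read depth gives.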
